A study of Mus musculus with 7 samples.

Results

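RNA splicing factor genes were examined for histone H3 lactylated at lysine 18 (H3K18La) in the postnatal mouse retina. They comprised genes whose symbol starts with Srsf, Hnrnp, Snrp, Sf3a, Sf3b, Prpf, Rbfox or Celf, together with the named regulators Nova1, Nova2, Msi1, Msi2, Ptbp1, Ptbp2 and Srrm4. A gene was included when a promoter peak was annotated to 1 of its protein-coding transcripts, and it was represented by the peak nearest the transcription start site (TSS). This gave 58 of the 9956 protein-coding genes with a promoter peak, with 64 of 11100 promoter peaks and 108253 peaks in all. Beyond the presence of a peak, the rule used no measured signal. The paper merged the peaks of all ages, and it reports promoter peaks in more genes at P28 than at P4 or P10. A gene could thus enter through a peak found at P28 alone, which favours a higher signal at P28. The genes and families were, however, chosen with earlier results of these data known. By role, 6 encoded Sm and U snRNP proteins, 6 SF3A and SF3B subunits, 10 PRPF proteins, 7 SR proteins, 16 hnRNPs and 13 tissue-restricted regulators.

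CUT&Tag, in which an antibody against a chromatin mark directs a tethered enzyme to the DNA beside it, was performed on dissociated whole retina of C57Bl/6J mice, with 500000 cells per assay. The groups were P4 (postnatal day 4, 2 libraries), P10 (day 10, 2 libraries) and P28 (day 28, 3 libraries). They differed in age, and in the batch of 1 P28 library. All libraries but P28 replicate 1 came from batch 1, and that one from batch 2. The sources used here do not say which animals or litters gave each replicate, so p-values measure the spread between these libraries. Signal was given by the authors as RPKM (reads per kilobase of peak, scaled to a normalized library size), and changes are differences of log2(RPKM + 1), which understate the change of weak peaks. A peak was called when limma's adjusted p (Benjamini-Hochberg over all 108253 peaks, all 7 libraries in 1 fit) was under 0.01.

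Introns are removed by the spliceosome, which is built from small nuclear ribonucleoproteins (snRNPs), most of which carry a ring of Sm proteins. The SF3A and SF3B complexes hold the branch site, and PRPF proteins belong to the tri-snRNP and associated complexes. SR proteins generally promote and hnRNPs often repress the use of an exon. RBFOX, CELF, NOVA, Musashi, PTBP and SRRM4 proteins set tissue-specific splicing, and in the retina Musashi proteins and SRRM4 are known for neuronal and photoreceptor exons, while mutations in several PRPF genes cause retinitis pigmentosa.

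Depth differed between the libraries of the whole series. Reads in peaks ranged from 199970 (P10 replicate 1) to 8274373 (P28 replicate 2), and were 358971 and 295383 at P4. The share of the normalized library size lying in peaks was 16.3% and 17.6% at P4, 36.1% and 52.1% at P10, and 42.4% to 57.1% at P28. A peak of 1 kb needed 1.36 and 1.79 RPKM at P4 and 5.42 and 2.36 RPKM at P10 to hold 3 reads, the number that a count of 0 cannot exclude. Summed within an age, the median splicing factor peak held 6 reads at P4, 7 at P10 and 175.5 at P28. In 21 of the 58 genes each P4 library had 3 reads or fewer (36.2%, against 38.1% of all genes with a promoter peak), and no fold is given for these. Marker promoters of rods rose over the same ages, with 8 of 10 listed genes measured, 8 called higher at P28 and summed signal of 17.1 and 18.9 RPKM at P4, 169 and 144 at P10, and 104 to 157 at P28. The part of any cell type in the results for splicing factors was not tested, and in a bulk tissue more cells of a type and more mark per cell cannot be told apart. Of other cell types, Mueller glia had 3 of 5 markers measured and 1 called higher (summed 4.51 and 6.47 RPKM at P4, 17.1 to 23.3 at P28), amacrine cells 2 of 4 and 1 called (6.11 and 4.4, then 12.2 to 18.7), bipolar cells 3 of 5 and 0 called (3.19 and 2.28, then 7.53 to 9.92), and ganglion cells 2 of 4 and 0 called (7.82 and 5.88, then 1.47 to 4.10). Markers of red blood cells had no promoter peak for any of 3 listed genes, and those of retinal progenitors had 6 of 10 measured with 0 called and summed signal of 8.70 and 18.3 RPKM at P4 and 15.2 to 17.7 at P28.

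Promoter windows of 300 bases (250 before and 50 after the start) were taken from RefSeq, build GRCm38.p6, to show promoter sequence under or beside these peaks. Of the 58 genes, 51 were in that table and 48 had a window overlapping their peak. A window could lie partly outside the peak. Its start could also differ from the TSS annotated to the peak (median 5.5 bases, but 236 in Msi2 and 562 in Rbfox1). The entries of Celf4, Hnrnpll, Hnrnpul2, Msi1, Rbfox2, Sf3b4 and Snrpb were not in it, and those of Celf2, Celf3 and Hnrnpl lay outside the peak. CpG dinucleotides were dense in most windows, with a median of 25.5 (range 3 to 52) against 21 over 7142 genes with a window overlapping their peak. The ratio of observed to expected CpG was over 0.6 in 45 of 48 (93.8%, against 74.3% of the 7142). The exceptions were Rbfox1, Rbfox3 and Snrpn, with 3, 4 and 3 CpGs.

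The first 4 windows belong to genes called higher at P28, and the other 3 are those with few CpGs. Capitals mark each CpG, and every sequence is written 5′ to 3′ on the strand of its gene. They lie at chr4:131873387-131873686 (Srsf4, plus strand), chr11:88718228-88718527 (Msi2, minus), chr14:52103972-52104271 (Hnrnpc, minus), chr5:116591768-116592067 (Srrm4, minus), chr11:118760992-118761291 (Rbfox3, minus), chr16:5884543-5884842 (Rbfox1, plus) and chr7:60140176-60140475 (Snrpn, minus).
Srsf4: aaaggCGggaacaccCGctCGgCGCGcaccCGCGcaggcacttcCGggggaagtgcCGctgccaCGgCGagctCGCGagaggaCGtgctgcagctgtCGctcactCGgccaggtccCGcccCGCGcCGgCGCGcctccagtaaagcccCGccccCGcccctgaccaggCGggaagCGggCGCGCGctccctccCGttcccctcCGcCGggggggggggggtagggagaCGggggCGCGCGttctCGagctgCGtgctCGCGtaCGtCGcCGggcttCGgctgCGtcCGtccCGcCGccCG
Msi2: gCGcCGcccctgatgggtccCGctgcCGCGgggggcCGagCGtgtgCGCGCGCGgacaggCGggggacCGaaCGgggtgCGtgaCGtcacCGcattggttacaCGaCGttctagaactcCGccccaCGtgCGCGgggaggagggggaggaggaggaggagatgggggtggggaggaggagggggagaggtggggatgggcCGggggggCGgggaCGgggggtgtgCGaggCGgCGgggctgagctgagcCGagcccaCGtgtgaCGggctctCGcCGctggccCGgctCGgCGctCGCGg
Hnrnpc: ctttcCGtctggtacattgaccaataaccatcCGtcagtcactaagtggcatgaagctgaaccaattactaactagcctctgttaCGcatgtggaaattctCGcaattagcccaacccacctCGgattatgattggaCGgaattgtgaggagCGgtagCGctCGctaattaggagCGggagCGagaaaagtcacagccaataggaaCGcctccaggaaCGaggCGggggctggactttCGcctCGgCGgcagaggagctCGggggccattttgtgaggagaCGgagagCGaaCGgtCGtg
Srrm4: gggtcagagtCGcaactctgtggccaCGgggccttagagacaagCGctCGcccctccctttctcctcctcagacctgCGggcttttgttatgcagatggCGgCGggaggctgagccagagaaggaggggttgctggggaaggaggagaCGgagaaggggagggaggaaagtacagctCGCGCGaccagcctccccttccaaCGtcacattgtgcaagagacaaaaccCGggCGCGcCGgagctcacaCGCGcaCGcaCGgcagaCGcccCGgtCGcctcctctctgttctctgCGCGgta
Rbfox3: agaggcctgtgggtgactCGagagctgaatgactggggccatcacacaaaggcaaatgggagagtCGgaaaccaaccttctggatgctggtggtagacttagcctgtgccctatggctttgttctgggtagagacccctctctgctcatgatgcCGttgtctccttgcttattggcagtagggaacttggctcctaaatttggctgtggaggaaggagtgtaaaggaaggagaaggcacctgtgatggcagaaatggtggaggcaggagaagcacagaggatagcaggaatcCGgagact
Rbfox1: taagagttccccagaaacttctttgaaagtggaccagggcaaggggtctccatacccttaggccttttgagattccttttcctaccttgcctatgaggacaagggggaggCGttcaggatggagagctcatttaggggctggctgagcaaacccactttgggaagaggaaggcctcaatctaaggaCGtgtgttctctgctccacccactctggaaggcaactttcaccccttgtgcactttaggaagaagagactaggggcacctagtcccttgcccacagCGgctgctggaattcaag
Snrpn: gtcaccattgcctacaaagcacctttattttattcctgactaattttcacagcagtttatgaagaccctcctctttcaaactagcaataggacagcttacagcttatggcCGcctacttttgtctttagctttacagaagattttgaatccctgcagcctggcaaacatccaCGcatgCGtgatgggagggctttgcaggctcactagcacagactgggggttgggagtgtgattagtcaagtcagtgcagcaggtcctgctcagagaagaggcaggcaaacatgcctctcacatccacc

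The CpG counts of the windows shown were 49, 39, 22, 25, 4, 3 and 3 in that order, and GC content was 77.7%, 76.3%, 54.3%, 64.3%, 53.0%, 52.7% and 48.0%. Among genes with few CpGs, the log2 change of P28 against P4 was 0.20 (SE 0.362) in Rbfox3 and 0.27 (SE 0.492) in Rbfox1. In Snrpn, also with few CpGs, it was 1.52 (SE 0.699), on 1 read at P4. Differences in change between these genes were not tested. Motifs were searched by their letters on both strands. The GC box GGGCGG, bound by SP and KLF factors, was in 32 of 48 windows (66.7%, against 67.8% of the 7142), and the ETS core CCGGAAG in 12 (25%, against 16.5%). By family the ETS core was in 4 of 5 windows of SF3A and SF3B genes, 3 of 10 of PRPF genes and 2 of 7 of SR genes. It was in 2 of 13 of hnRNP genes, 1 of 5 of Sm and U snRNP genes and 0 of 8 of tissue-restricted regulators. A difference between families was not tested. The other letters searched were TGACGTCA (3 windows, 6.25% against 3.37%), AAGATGGC (4, 8.33% against 4.43%), CTAATCC (1, 2.08% against 2.34%), TATAAA (4, 8.33% against 6.69%) and GCGCATGC (0, against 5.92%). The SF3B window with a call, that of Sf3b2 at chr19:5295406-5295705 (minus strand), is shown with the ETS core in capitals. No match says only that these letters are not in the window.
Sf3b2: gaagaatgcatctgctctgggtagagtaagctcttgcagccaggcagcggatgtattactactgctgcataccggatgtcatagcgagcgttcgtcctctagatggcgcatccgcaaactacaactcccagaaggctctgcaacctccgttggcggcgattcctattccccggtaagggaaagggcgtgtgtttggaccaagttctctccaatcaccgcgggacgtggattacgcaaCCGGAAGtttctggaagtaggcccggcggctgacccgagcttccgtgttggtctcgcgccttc

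Every splicing factor promoter had a higher fitted level at P28 than at P4 (58 of 58, but 53 with each library centred on its median, 51 after quantile normalization and 41 when scaled to reads in peaks), as did 90.5% of all genes with a promoter peak. A rise was favoured in both sets, since a peak found at P28 alone sufficed for inclusion. In the fit over all libraries the share that passed the test was near that of promoters in general. At P28 against P4, 20 of 58 were called higher and 0 lower (34.5% higher, against 33.4% higher and 0.281% lower over all genes with a promoter peak, and 18.9% higher over all peaks). The log2 change ranged from 0.20 to 2.72 with a median of 1.44, against 1.35 over all genes with a promoter peak and 0.68 over all peaks. With the weakly read P4 levels set to 3 reads per library the medians were 1.24 and 1.06. In 53 of the 58 all P28 libraries were above both P4 libraries, against 79.8% of all genes with a promoter peak. Under other settings the share of splicing factors called was below that of promoters, at 13.8% against 22.0% with median centring, 10.3% against 16.9% after quantile normalization, 1.72% against 7.29% scaled to reads in peaks and 12.1% against 18.6% with the replicate block, or above it, at 56.9% against 53.3% with voom on recovered reads.

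In the 7 libraries the median over the 58 genes was 1.54 and 1.48 RPKM at P4, 2.5 and 3.17 at P10, and 4.51, 5.05 and 6.02 at P28. The highest values were 6.69 and 5.17 RPKM at P4 and 20.1 in P28 replicate 3. Both P4 medians were below both P10 medians, and all of these were below the 3 P28 medians. The same ordering held for all genes with a promoter peak, whose medians were 1.54 and 1.63, 2.44 and 3.24, and 4.55 to 5.59 RPKM. The median splicing factor lay between the 45.5th and the 53.6th percentile of those genes in every library.

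**Figure D1:**
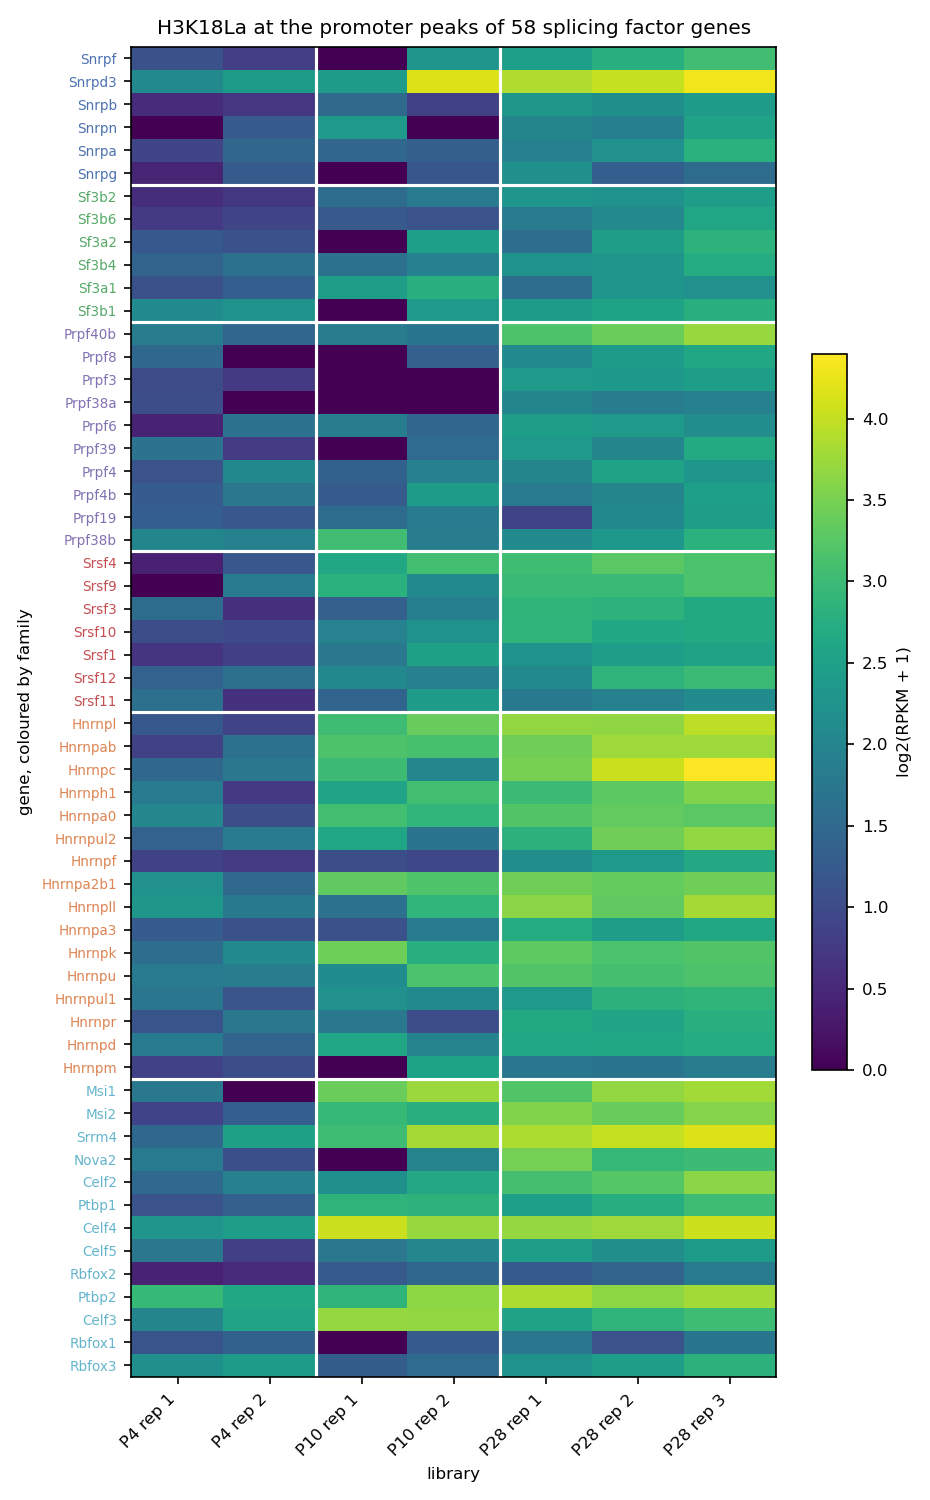
Signal (log2(RPKM + 1), colour) at the promoter peak of each of 58 splicing factor genes (lines, coloured by family and ordered by change) in each of 7 libraries (columns). Most genes are darker (lower) at P4 than at P28, and 11 genes have 0 reads in P10 replicate 1, the shallowest library.

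The number of calls depended on the libraries. Leaving out a P10 library left the P28 against P4 change of every gene as it was (median 1.44) and altered only the estimate of spread. A P28 against P4 call gained without a P10 library, here or for single genes below, thus reflects that estimate and not a larger change. It was 4 without P28 replicate 2 or without P28 replicate 3 (6.90%, against 13% and 12.8% of all genes with a promoter peak in the same fits), 6 without P4 replicate 2 (10.3% against 10.7%) and 7 without P4 replicate 1 (12.1% against 9.33%). It was 36 or 37 without P10 replicate 1 or 2 (62.1% against 55.3% and 63.8% against 55.5%). Without P28 replicate 1, and so within batch 1, it was 7 (12.1% against 17.5%). The count thus moved in the same direction as that of all promoters in each of these fits. Of the genes not called over all libraries, 16 were called without P10 replicate 1, the same 16 and Snrpn without P10 replicate 2, and 13 with voom on recovered reads. Hnrnpl, Hnrnpab and Msi2 were called whichever library was left out. Of the 20 calls, 17 kept an adjusted p under 0.05 in each of these 7 fits, and their highest adjusted p over all was 0.0837. The lowest log2 change of any of the 20 was 1.14, so no direction turned.

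The families differed in how much signal they carried. The 22 genes of the core spliceosome families (snRNP, SF3 and PRPF) had a median P28 level of 4.11 RPKM, hnRNPs 8.5 and tissue-restricted regulators 7.95, against 4.99 over all genes with a promoter peak. Of the core genes 2 were called higher at P28 (9.09%, median log2 change 1.21), and of the other 36 genes 18 (50%, median 1.54), against 33.4% and a median of 1.35 over all genes with a promoter peak. In 13 of the 22 core genes each P4 library held 3 reads or fewer. Core peaks held a median of 112 reads at P28, against 355 for hnRNPs, 342 for tissue-restricted regulators and 176 for SR proteins. At P4 the median was 5 reads for core genes and for SR proteins, 9 for regulators and 11.5 for hnRNPs. The part of depth in the difference was not tested. A smaller share of core genes than of the others was called without any 1 library as well. The shares were 40.9% and 75% without P10 replicate 1 (55.3% of all genes with a promoter peak) and 45.5% and 75% without P10 replicate 2 (55.5%) at the upper end. They were 0% and 11.1% without P28 replicate 2 or P28 replicate 3 (13% and 12.8%) at the lower end, where both were below the background.

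**Figure D2:**
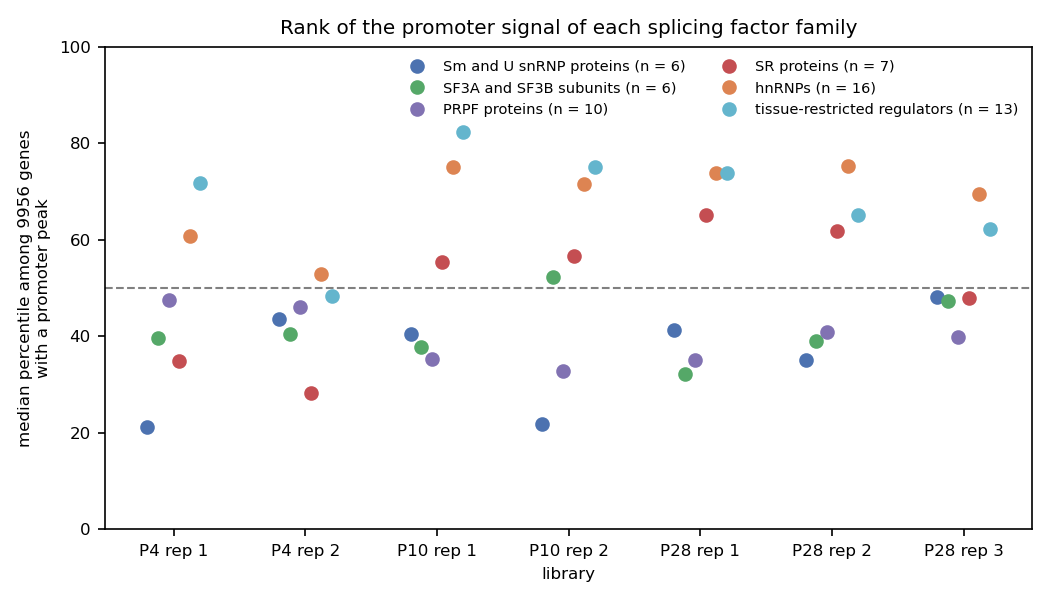
Median percentile of each family's promoter signal among 9956 genes with a promoter peak (vertical axis) in each library (horizontal axis), with 1 point per family and library, and 50 dashed. hnRNPs lie at 52.9 or above in all 7 libraries, and PRPF genes at 47.6 or below.

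Sm and U snRNP proteins form the ring around most spliceosomal RNAs or bind such RNAs directly. None of the 6 genes was called at P28 over all libraries (median log2 change 1.61), against 33.4% of all genes with a promoter peak. The count was 3 with voom (background 53.3%) and without P10 replicate 1 (55.3%), and 4 without P10 replicate 2 (55.5%). In all 6 every P28 library was above both P4 libraries (background 79.8%), and 4 had an unadjusted limma p under 0.05 (background 66.7%). Snrpd3, an Sm ring protein, had the highest P28 mean of all 58 genes at chr10:75516729-75517979. Its signal was 3.27 and 4.29 RPKM at P4, 4.33 and 17.0 at P10, and 13.6, 15.2 and 18.6 at P28. All P28 libraries were above P4, and the P10 libraries lay far apart, one beside P4 and one among P28 (log2 change of P28 against P4 1.81, SE 0.457, 4.18-fold, limma adjusted p = 0.0112). It was called with voom (adjusted p = 0.000104), without P10 replicate 1 or 2 (limma adjusted p 0.000308 and 0.000319) and with the filter on weak peaks (limma adjusted p = 0.00928). This peak also covers the start of Gucd1, so the signal cannot be given to either gene.

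Snrpf, another Sm ring protein (chr10:93589376-93590180), had 1.13 and 0.741 RPKM at P4, 0 and 3.92 at P10, and 4.56, 5.8 and 7.29 at P28 (log2 change 1.82, SE 0.616, limma adjusted p = 0.0380). All P28 libraries were above the others, but the P4 values rested on 3 reads in all. Snrpf was called with voom (adjusted p = 0.00141) and without P10 replicate 1 or 2 (limma adjusted p 0.000871 and 0.00111). The remaining genes, Snrpa, Snrpb, Snrpg and Snrpn, had P28 means of 2.34 to 4.17 RPKM and changes of 0.82 to 1.69 that were not called over all libraries. Snrpn, a paralog of Snrpb known from neurons and an imprinted locus, had 1 read over both P4 libraries and a P28 mean of 3.53 RPKM. These values belong to the 1 peak used, and other starts of Snrpn are not covered.

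SF3A and SF3B subunits bind the branch site as part of the U2 snRNP. Of 6 genes 1 was called higher at P28 (16.7%, background 33.4%), and the family median was 1.02, which became -0.07 when libraries were scaled to their reads in peaks. The count was 2 with voom (background 53.3%) and 0 without any 1 P28 library (background 12.8% to 17.5%). Without P4 replicate 1 the family median was 0.98, and without P4 replicate 2 it was 1.06. Sf3b2 (chr19:5295037-5295961), a subunit next to the branch site, rose from 0.491 and 0.645 RPKM at P4 through 1.95 and 2.56 at P10 to 3.97, 3.72 and 4.48 at P28 (log2 change 1.69, SE 0.395, limma adjusted p = 0.00788). The 3 ages did not overlap, with 2 reads over both P4 libraries. Its call was lost without any 1 of the P4 or P28 libraries, with a highest adjusted p of 0.0457.

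Sf3b6, the subunit that contacts the branch point adenosine (chr12:4816716-4818055), had 0.678 and 0.891 RPKM at P4, 1.35 and 1.18 at P10, and 2.55, 3.21 and 5.03 at P28 (log2 change 1.33, SE 0.435, limma adjusted p = 0.0334). Its ages did not overlap either. It was not called over all libraries, but was with voom (adjusted p = 0.00578) and without P10 replicate 1 or 2 (limma adjusted p 0.00881 and 0.00844). At the other end was Sf3b1, the scaffold of the complex, whose mean signal was 3.55 RPKM at P4 and 5.01 at P28 (log2 change 0.40, SE 0.598, limma adjusted p = 0.606). Sf3a1, whose peak also covers the start of Ccdc157, was lower in all P28 libraries (1.96, 3.98 and 3.65 RPKM) than in the P10 libraries (4.49 and 5.88 RPKM), a difference that was not called (limma adjusted p = 0.330).

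PRPF proteins belong to the tri-snRNP, to the U1 snRNP or to complexes that activate the spliceosome. Of 10 genes 1 was called higher at P28 (10%, background 33.4%), and the family median was 1.2. The count was 4 with voom (background 53.3%), 1 without P28 replicate 1 (17.5%) and 0 without P28 replicate 2 or 3 (13% and 12.8%). Without P4 replicate 1 the family median was 1.11, and without P4 replicate 2 it was 0.90. Prpf40b, a U1-associated protein (chr15:99294642-99295334), rose from 2.62 and 1.72 RPKM at P4 to 7.95, 9.67 and 12.2 at P28 (log2 change 1.78, SE 0.342, 4.58-fold, limma adjusted p = 0.00296). At P10 it had 2.61 and 2.28 RPKM, inside the P4 range, so all P28 libraries stood above the other 4. The call was lost without P28 replicate 2 or 3 or without either P4 library (highest adjusted p 0.0258).

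Mutations of Prpf3, Prpf4, Prpf6 and Prpf8 cause retinitis pigmentosa, and none of these 4 promoters was called in the fit over all libraries. Prpf8, the U5 protein at the core of the spliceosome (chr11:75486278-75487289), had 1.80 and 0 RPKM at P4, 0 and 1.56 at P10, and 3.37, 4.37 and 5.12 at P28 (log2 change 1.65, SE 0.587, limma adjusted p = 0.0458). Prpf3, a U4/U6 protein (chr3:95855436-95856312), had 1.04 and 0.680 RPKM at P4, 0 in both P10 libraries, and 4.19, 4.06 and 4.53 at P28 (log2 change 1.51, SE 0.407, limma adjusted p = 0.0152). All P28 libraries of both genes were above the earlier ages. Both were called with voom (adjusted p = 0.000823 for Prpf8 and 0.00708 for Prpf3) and in limma fits without P10 replicate 1 or 2 (adjusted p 0.00871 and 0.0091 for Prpf8, 0.00288 and 0.0028 for Prpf3). The change of Prpf8 was 2.39 without P4 replicate 1 and 0.91 without P4 replicate 2.

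Prpf6, which bridges the U5 and U4/U6 snRNPs, had 0.335 and 2.20 RPKM at P4 and 4.45, 4.12 and 3.44 at P28, without overlap, but was not called (log2 change 1.27, SE 0.468, limma adjusted p = 0.0518). Its change was 0.64 without P4 replicate 1 and 1.90 without P4 replicate 2, and it was called with the mean over its promoter peaks (1.91, limma adjusted p = 0.00728) and with voom (1.91, adjusted p = 0.004). Prpf4, a U4/U6 protein whose peak also covers the start of Cdc26, had 1.19 and 3.14 RPKM at P4 and 2.99, 4.79 and 3.93 at P28, which overlapped (log2 change 0.69, SE 0.436, limma adjusted p = 0.223). Its change was 0.23 without P4 replicate 1 and 1.14 without P4 replicate 2, and -0.46 scaled to reads in peaks. Prpf38a, a protein of the precatalytic spliceosome with a peak of 429 bases, had 1 read over the 4 P4 and P10 libraries and 2.58 to 3.06 RPKM at P28 (log2 change 1.41, SE 0.407, limma adjusted p = 0.0201). Its level before P28 was not measurable at this depth. The fitted change was 1.93 without P4 replicate 1 and 0.89 without P4 replicate 2, and it was called without P10 replicate 1 or 2 (limma adjusted p 0.00877 and 0.00917).

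**Figure D3:**
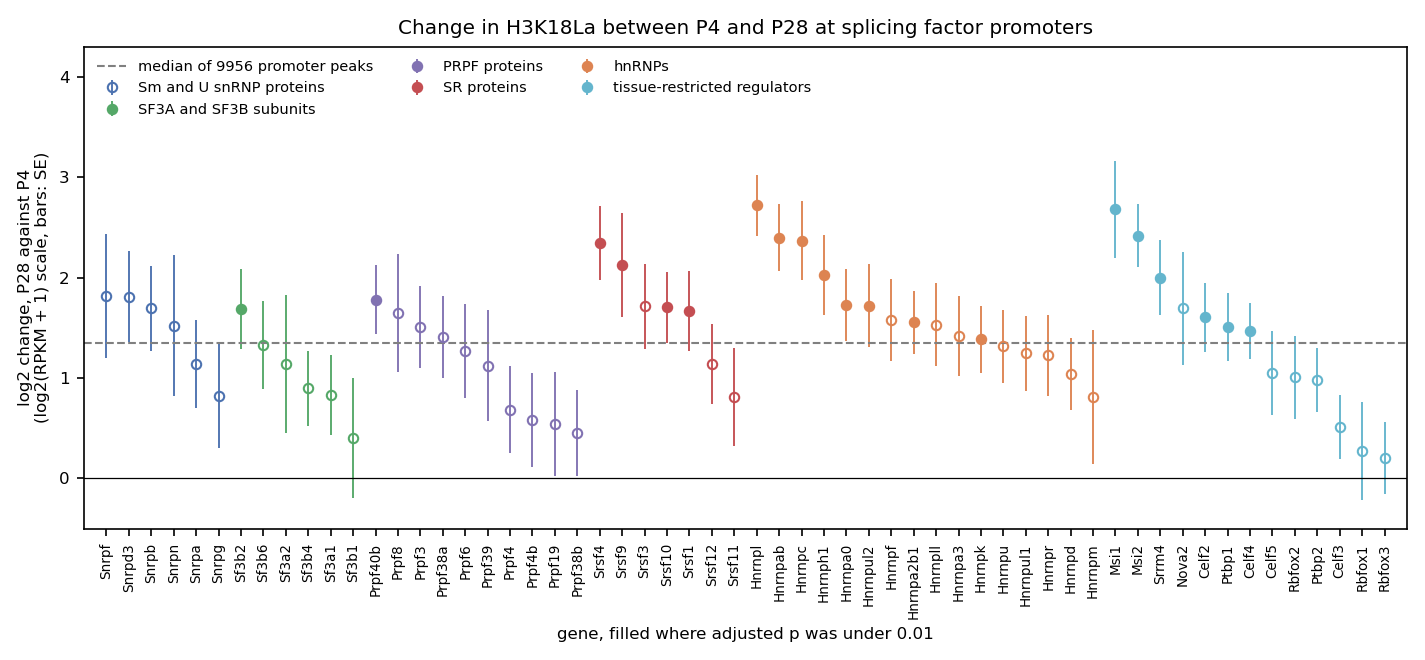
Log2 change of P28 against P4 on the log2(RPKM + 1) scale (vertical axis, bars are SE) for each gene (horizontal axis), coloured by family and filled where the adjusted p was under 0.01. All 58 points lie above 0, 20 are filled, and the dashed line is the median of 1.35 over 9956 promoter peaks.

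SR proteins bind exonic enhancers and recruit the spliceosome. Of 7 genes, 4 were called higher at P28 (Srsf4, Srsf9, Srsf10 and Srsf1, 57.1% against 33.4% of all genes with a promoter peak), the family median was 1.71, and in all 7 every P28 library was above both P4 libraries (background 79.8%). The count was 1 without any 1 P28 library (background 12.8% to 17.5%). Without P4 replicate 1 the family median was 1.59, and without P4 replicate 2 it was 1.66. Srsf4 (chr4:131873418-131874800), whose CpG-dense window is shown above, rose from 0.329 and 1.29 RPKM at P4 to 5.22 and 7.41 at P10 and 7.21, 8.71 and 7.74 at P28. The P4 libraries, with 4 reads between them, stood apart from all the others, while P10 and P28 overlapped. It was called at P28 (log2 change 2.34, SE 0.368, limma adjusted p = 0.0011) and at P10 (2.05, SE 0.403, limma adjusted p = 0.00449). The first call was lost only without P4 replicate 1 (adjusted p 0.0127), among the single libraries left out.

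Srsf9 (chr5:115326125-115327320) had 0 and 2.49 RPKM at P4, 6.04 and 3.30 at P10, and 6.80, 6.78 and 7.94 at P28 (log2 change 2.13, SE 0.516, 5.75-fold, limma adjusted p = 0.0094). The ages did not overlap, and the call was lost without P4 replicate 1 or any 1 P28 library (highest adjusted p 0.0657). The change itself was 1.22 (2.88-fold) without P4 replicate 1, which had 0 reads, and 3.03 without P4 replicate 2. Srsf10 and Srsf1, a founding member of the family, had changes of 1.71 (SE 0.354) and 1.67 (SE 0.401) and 5 and 4 reads at P4. Both calls were lost without any 1 of the P4 or P28 libraries (highest adjusted p 0.026 for Srsf10 and 0.0498 for Srsf1). Srsf3 lay just outside the threshold with a change of 1.71 (SE 0.422, limma adjusted p = 0.01001), and Srsf12 and Srsf11 had 1.14 and 0.81.

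hnRNPs coat nascent transcripts, and many silence exons. Of 16 genes 8 were called higher at P28 (Hnrnpl, Hnrnpab, Hnrnpc, Hnrnph1, Hnrnpa0, Hnrnpul2, Hnrnpa2b1 and Hnrnpk), or 50% against 33.4% of all genes with a promoter peak. The count was 2 without P28 replicate 2 or 3 (background 13% and 12.8%) and 3 without P28 replicate 1 (17.5%). The family median was 1.54 (1.58 without P4 replicate 1 and 1.41 without P4 replicate 2). P28 did not overlap P4 in any of the 16 (background 79.8%). Hnrnpl, which binds CA repeats, had the largest change of all 58 genes and the widest peak, 2782 bases at chr7:28807318-28810099. Its signal was 1.31 and 0.858 RPKM at P4, 7.14 and 9.35 at P10, and 11.9, 11.7 and 14.5 at P28. The 3 ages did not overlap, and the change was 2.72 (SE 0.307, 11.7-fold, limma adjusted p = 0.00026), with 12 reads at P4 and 890 at P28. It was the only one of the 20 called under all 15 alternative settings tried.

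Hnrnpab (chr11:51606307-51607428), an A/B-type hnRNP, rose from 0.810 and 2.13 RPKM at P4 to 8.05 and 7.73 at P10 and 9.82, 12.5 and 12.5 at P28 (log2 change 2.40, SE 0.336, 7.91-fold, limma adjusted p = 0.000651). Its change was 2.00 (5.46-fold) without P4 replicate 1 and 2.79 without P4 replicate 2. Hnrnpc, which binds uridine tracts (chr14:52103793-52104807), rose from 1.79 and 2.35 RPKM at P4 to 10.3, 15.5 and 20.1 at P28, the highest single value among the 58 genes (log2 change 2.37, SE 0.395, 7.39-fold, limma adjusted p = 0.00148). At P10 Hnrnpab was called (1.90, SE 0.368, limma adjusted p = 0.00427). Hnrnpc had 7.11 and 3.11 RPKM there, above both P4 libraries, and was not called (0.92, SE 0.433, limma adjusted p = 0.132). The P28 call of Hnrnpc was lost without P28 replicate 2 or 3 or without either P4 library (highest adjusted p 0.0293).

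The remaining 5 called hnRNPs had changes of 1.39 to 2.03. The peaks of Hnrnpa2b1, Hnrnpk and Hnrnpul2 also cover the starts of Cbx3, Rmi1 and Ttc9c. The 8 hnRNPs that were not called, Hnrnpf, Hnrnpll, Hnrnpa3, Hnrnpu, Hnrnpul1, Hnrnpr, Hnrnpd and Hnrnpm, had changes of 0.81 to 1.58. The smallest change was that of Hnrnpm, with P28 values of 2.33, 2.23 and 2.60 RPKM and 4 reads at P4.

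Tissue-restricted regulators varied most, from 0.20 to 2.68 in log2 change, and 6 of 13 were called higher at P28 (46.2%, against 33.4% of all genes with a promoter peak). The count was 1 without P28 replicate 2 or 3, 2 without P28 replicate 1 or either P4 library, and 8 without either P10 library. The Musashi genes had the largest changes. Msi1 (chr5:115429005-115430150) had 2.38 and 0 RPKM at P4, 9.45 and 12.4 at P10, and 8.24, 11.9 and 12.8 at P28. P10 and P28 overlapped and both stood above P4 (P28 against P4 2.68, SE 0.483, 9.22-fold, limma adjusted p = 0.00214). Its level at P10 was already that of P28, with means of 10.9 and 11 RPKM. The call was lost without P4 replicate 2, which had 0 reads, or without any 1 P28 library (highest adjusted p 0.0181). Without P4 replicate 2 the change was 1.80 (4.61-fold), and without P4 replicate 1 it was 3.56.

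Msi2 (chr11:88717763-88719383) rose from 0.841 and 1.47 RPKM at P4 to 6.68 and 5.84 at P10 and 10.8, 9.37 and 11.1 at P28, with no overlap between ages (log2 change 2.42, SE 0.315, 9.02-fold, limma adjusted p = 0.000456). Srrm4, which drives inclusion of neuronal microexons (chr5:116590802-116592563), rose from 1.81 and 4.74 RPKM at P4 to 13.4, 15.1 and 16.9 at P28 (log2 change 2.00, SE 0.378, 4.62-fold, limma adjusted p = 0.00271). Its P10 values of 7.17 and 13 RPKM lay between the other ages. The call of Srrm4 was lost without P4 replicate 1 or any 1 P28 library (highest adjusted p 0.0364), and its fold was 3.19 without P4 replicate 1 and 8.38 without P4 replicate 2.

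The polypyrimidine tract proteins act at different stages of development, with PTBP1 repressing neuronal exons in progenitors and PTBP2 acting in young neurons. Ptbp1 (chr10:79852654-79854949) rose from 1.19 and 1.56 RPKM at P4 to 6.29 and 6.18 at P10 and 4.57, 5.68 and 7.22 at P28 (log2 change 1.51, SE 0.341, 4.24-fold, limma adjusted p = 0.00667). Ptbp2 (chr3:119782262-119783416) had the highest P4 mean of the 58 genes, with 6.69 and 5.17 RPKM, then 6.25 and 11.6 at P10 and 13.4, 11.6 and 12.9 at P28 (log2 change 0.98, SE 0.316, 2.13-fold, limma adjusted p = 0.0312). P28 stood above P4 in both genes. The change of Ptbp2 became -0.64 after quantile normalization and -0.42 scaled to reads in peaks. Ptbp2 was not called over all libraries, but was without P10 replicate 1 or 2 (limma adjusted p 0.00802 and 0.00783). The call of Ptbp1 was lost without any 1 P4 or P28 library (highest adjusted p 0.0365). A difference in change between the genes was not tested.

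CELF proteins bind GU-rich sequence. Celf4, with the highest P28 mean of them, rose from 3.90 and 4.44 RPKM at P4 to 15.5 and 12.2 at P10 and 12.0, 12.5 and 15.6 at P28 (log2 change 1.47, SE 0.277, 3.20-fold, limma adjusted p = 0.00271). Celf2 (chr2:6884060-6885546) rose from 1.83 and 2.81 RPKM at P4 to 7.59, 8.39 and 11.4 at P28 (log2 change 1.61, SE 0.343, 3.93-fold, limma adjusted p = 0.00509). Its P10 values of 3.64 and 5.30 RPKM lay between, while those of Celf4 overlapped P28. Both calls were lost without P28 replicate 2 or 3 or either P4 library, and that of Celf2 also without P28 replicate 1 (highest adjusted p 0.0226 for Celf4 and 0.0414 for Celf2). Celf4 has several promoter peaks, and with the mean over them it was called neither at P28 (1.30, limma adjusted p = 0.0328) nor at P10 (0.50, limma adjusted p = 0.445).

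Celf3 (chr3:94478552-94479153) had a different course, with 3.02 and 4.96 RPKM at P4, 12.0 and 11.8 at P10, and 4.79, 6.23 and 7.17 at P28. Both P10 libraries were above all others, with no call in any comparison (P10 against P4 1.40, SE 0.350, limma adjusted p = 0.0125, and P28 against P10 -0.88, adjusted p = 0.0908). The P10 values rested on 13 reads. Its change of P28 against P4 was 0.52, and 0.23 without P4 replicate 1 and 0.80 without P4 replicate 2. It was -0.0069 with median centring, -0.66 after quantile normalization and -0.80 scaled to reads in peaks. Celf5 had 2.37 and 0.779 RPKM at P4, 2.36 and 3.09 at P10, and 4.45, 3.53 and 4.28 at P28 and was not called (log2 change 1.05, SE 0.414, limma adjusted p = 0.0651). Its change was 1.51 without P4 replicate 1 and 0.59 without P4 replicate 2, and -0.021 scaled to reads in peaks.

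Nova2, a neuronal regulator with the only peak not over its TSS (at chr7:18925148-18925687), had 2.52 and 1.11 RPKM at P4, 0 and 2.92 at P10, and 10.2, 6.60 and 7.04 at P28. All P28 libraries were above the others, on 6 reads over the earlier ages, and no call was made over all libraries (log2 change 1.69, SE 0.567, limma adjusted p = 0.0363). It was called without P10 replicate 1 or 2 (limma adjusted p 0.0018 and 0.00202). RBFOX proteins bind UGCAUG and are typical of neurons and muscle, and none of their genes was called over all libraries. Rbfox3, which encodes the neuronal marker NeuN (chr11:118759933-118761183), had 3.63 and 4.29 RPKM at P4, 1.44 and 1.89 at P10, and 3.77, 4.47 and 6.07 at P28. P4 and P28 overlapped, and both P10 libraries were below all others, on 4 reads (P28 against P4 0.20, SE 0.362, limma adjusted p = 0.669, and P10 against P4 -0.90, SE 0.396, adjusted p = 0.108). The median change over all peaks was 0.68, and with each library centred on its median the change of Rbfox3 was -0.32. At P10 against P4 it was called lower after quantile normalization (-1.80, limma adjusted p = 0.00862) and scaled to reads in peaks (-2.02, limma adjusted p = 0.0024), as were 1.11% and 4.79% of all genes with a promoter peak. With 1 library left out its change of P28 against P4 ranged from 0.046 to 0.33.

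Rbfox1 (chr16:5884539-5885674) had 1.2 and 1.58 RPKM at P4, 0 and 1.39 at P10, and 2.31, 1.19 and 2.28 at P28, which overlapped (log2 change 0.27, SE 0.492, limma adjusted p = 0.671). With 1 library left out its change ranged from 0.16 to 0.47. It was -0.25 with median centring, -0.21 after quantile normalization and -0.75 scaled to reads in peaks. Rbfox2 (chr15:77305890-77307199) had the lowest P28 mean of the 58 genes, 1.85 RPKM (SD 0.580, n = 3), against 0.347 and 0.456 RPKM and 2 reads at P4 (log2 change 1.01, SE 0.410, limma adjusted p = 0.0722). With 1 peak per gene, other starts of these genes are not covered.

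**Figure D4:**
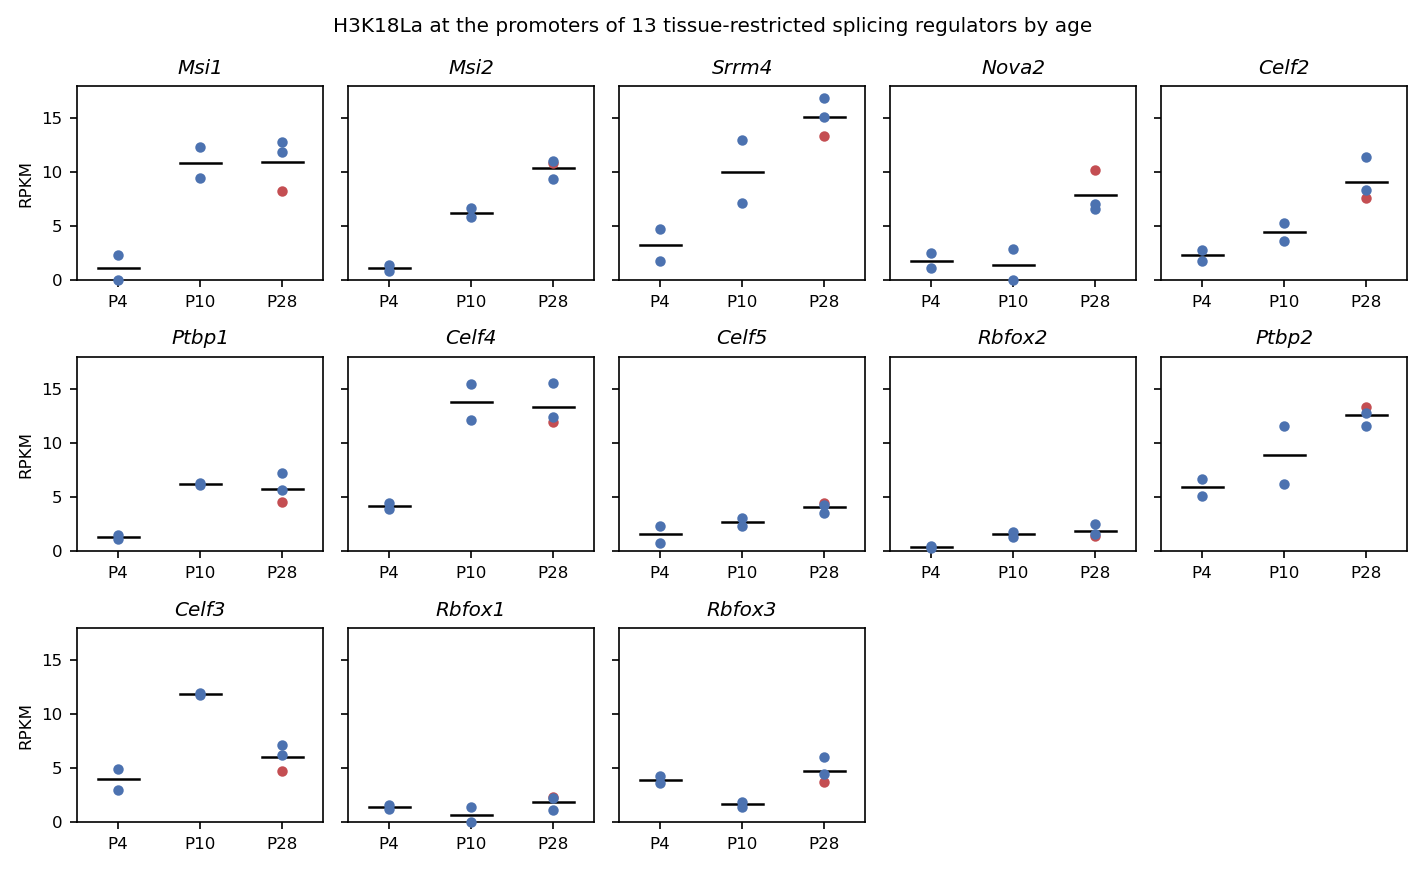
Signal in RPKM (vertical axis) at P4, P10 and P28 (horizontal axis) for 13 tissue-restricted regulators, with 1 point per library, black lines at the group means and P28 replicate 1 (batch 2) in red. Msi1, Celf4 and Ptbp1 are as high at P10 as at P28, Celf3 is highest at P10, and Rbfox1 is at 2.31 RPKM or below.

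At P10 against P4, 7 of 58 genes were called higher and 0 lower (12.1% higher, against 11.6% higher and 0.864% lower over genes with a promoter peak, and 11.4% higher over all peaks). They were Msi1, Hnrnpl, Srsf4, Hnrnpab, Msi2, Ptbp1 and Celf4, all of which were also called at P28 with the same P4 libraries. None of these 7 calls held in every fit with 1 library left out, and that of Ptbp1 was lost in all 7 such fits, while the adjusted p of each stayed at 0.0371 or below. Changes were 2.69 (SE 0.529) for Msi1, 2.15 (SE 0.336) for Hnrnpl, 1.76 (SE 0.345) for Msi2, 1.61 (SE 0.373) for Ptbp1 and 1.51 (SE 0.303) for Celf4. With 1 library left out that of Msi1 ranged from 1.81 to 3.56. Over the 58 genes the median change was 0.56, against 0.54 over genes with a promoter peak. In 31 both P10 libraries were above both P4 libraries (background 46.1%), and in Prpf3 and Rbfox3 both were below (3.45%, background 8.96%). Of the core families 0 of 22 were called, and of tissue-restricted regulators 4 of 13 (30.8%), beside the 11.6% of genes with a promoter peak. The regulator count was 0 without any 1 P28 library. Regulators also had 0 calls after quantile normalization (background 2.4%) and scaled to reads in peaks (background 2.46%). Over the 58 genes the count was 1 (1.72%) without any 1 P28 library. Of all genes with a promoter peak, 6.76%, 4.62% and 6.25% were called without P28 replicate 1, 2 and 3. It was 2 without P4 replicate 1 (3.45% against 2.66%), 1 without P4 replicate 2 (1.72% against 2.97%) and 8 without P10 replicate 1 (13.8% against 14.9%). Without P10 replicate 2 it was 7 higher (12.1% against 11.6%) and 1 lower, Sf3b1 (-2.18, limma adjusted p = 0.00379, with 2.35% of all genes with a promoter peak lower). When libraries were scaled to their reads in peaks, the median became -0.32 over the 58 genes and -0.32 over genes with a promoter peak. Under that scaling the family medians at P10 were below 0 for all families but SR proteins (0.25) and tissue-restricted regulators (0.24).

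At P28 against P10, 0 of 58 genes were called by limma (0 over all genes with a promoter peak), while 20 had an unadjusted p under 0.05 (34.5%, against 39.5%) and voom on recovered reads called 1, Prpf3 (1.72%, against 4.39%). The median change was 0.64, against 0.74 over genes with a promoter peak. Without P10 replicate 2 these medians were 0.79 and 0.88. That age then rested on P10 replicate 1, the shallowest library, where 11 of the 58 genes had 0 reads. In 37 genes all P28 libraries were above both P10 libraries (background 55.1%), and in Sf3a1 and Celf3 all were below (3.45%, background 5.69%). The largest differences were those of Prpf3 (2.39), Nova2 (2.15) and Prpf38a (1.93), which had 0, 2 and 0 reads at P10.

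Other splicing genes were counted in the same way. Of a list of 85 further spliceosome and regulator genes, 48 had a promoter peak, 16 were called higher at P28 against P4 and 0 lower (33.3% higher, against 33.4% of all genes with a promoter peak), with a median log2 change of 1.38 (against 1.35). At P10 against P4, 4 were called higher (8.33%, against 11.6%), with a median of 0.34 (against 0.54). Mbnl2, a regulator of developmental exons, had the highest P28 mean of them (3.23 RPKM at P4 and 17.3 at P28, log2 change 2.09, SE 0.300, limma adjusted p = 0.000713), and Eftud2, a U5 protein, the largest change (2.43, SE 0.420, limma adjusted p = 0.00177). Both were singled out after their values were seen.

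The rule left out genes whose nearest annotated start belonged elsewhere. RefSeq types 82 matching symbols as protein-coding, and 24 of them were not among the 58. One of these, Hnrnpa1l2-ps2, had no protein-coding start in the gene annotation searched. For 15 a peak lay in the promoter interval of a coding start but was annotated to a neighbour or to another kind of transcript. Among these were Srsf2 (annotated to Mfsd11), Hnrnpa1 (Cbx5), Sf3b3 (Cog4) and Nova1 (its own processed transcript). For the other 9, Prpf31 among them, none of the peaks analysed lay in such an interval. In 10 of the 58 genes the peak also covered the start of another protein-coding gene.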

How the data were processed

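H3K18La CUT&Tag signal of 7 mouse retina libraries was analysed at 108253 peaks. According to the study's methods, the authors aligned reads to GRCm38, called peaks with MACS (q beyond 1e-06 in at least 2 replicates), removed blacklisted regions, annotated peaks with ChIPseeker 1.34.1 (promoter from 1000 bases before to 500 after the TSS) and normalized libraries on bins of 10000 bases. The deposited RPKM values per peak and library were used as the authors gave them. The labels name pA-MNase as the tethered enzyme and the methods pA-Tn5. The table of the authors' own comparisons (fold changes, p-values, FDR and mean RPKM) and the list of peak positions were not used.

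The deposited RPKM values gave whole reads for 100% of values (within 0.05 reads), and these set the depths quoted. The limit of 3 reads covers counting error only. log2(RPKM + 1) was fitted with limma 3.58.1 (R 4.3.3, trended empirical Bayes) over all 7 libraries with 1 mean per age, without a filter, and p-values were adjusted over all peaks. Folds are ratios of mean RPKM and are not given where each library of the lower group had 3 reads or fewer. Tables were made with Python 3.11.15, pandas 2.3.3 and numpy 2.4.6, and the fit was tested on simulated data. Alternatives were a pseudocount of 0.1, a filter on weak peaks, other scalings, voom on recovered reads, a replicate block, the mean over a gene's promoter peaks, a threshold of 0.05, and each library left out. Genes named with values were all tissue-restricted regulators, and Prpf3, Prpf4, Prpf6, Prpf8 and Prpf31 where measured. Beyond these, the 2 further genes with the largest absolute change of P28 against P4 in each other family were named. Genes called lower or called between P10 and P28, and the 2 highest and 2 lowest at P28, were also named. The rest of the members named were chosen after their values were seen. The genes, families and lists were chosen with earlier results of these data known. Coordinates are GRCm38, counted from 1.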

Additional observations from a re-analysis of the deposited data

How the results depend on the processing

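At P28 against P4 the 20 calls (34.5%, against 33.4% of all genes with a promoter peak) became 12 with a pseudocount of 0.1 (20.7% against 22.7%), 8 with median centring (13.8% against 22%), 6 with quantile normalization (10.3% against 16.9%), 1 scaled to reads in peaks (1.72% against 7.29%), 33 with voom (56.9% against 53.3%), 7 with the replicate block (12.1% against 18.6%) and 38 at an adjusted p under 0.05 (65.5% against 55.6%), and ranged from 4 to 37 with 1 library left out. The median log2 change was 1.93, 0.92, 0.72, 0.35 and 1.73 in the first 5 of these and 1.33 to 1.5 with 1 library left out. At P10 against P4 the 7 calls became 2 (quantile, 1 kept, 1.72% against 2.4%, and 1 lower), 1 (scaled, lower, with 0 higher against 2.46%), 15 (threshold 0.05, 25.9% against 24.3%) and 1 to 8 (1 library left out). The median was 0.31 (centring), 0.90 (pseudocount), 0.23 (quantile), -0.32 (scaled), 1.00 (voom) and 0.48 to 0.83 (1 library left out). At P28 against P10 the calls were 1 (voom, 1.72% against 4.39%), 5 (threshold 0.05, 8.62% against 15.2%) and 0 to 10 (1 library left out), and the median 0.64 became 0.37 (centring), 0.81 (pseudocount), 0.42 (quantile), 0.47 (scaled) and 0.49 to 0.79 (1 library left out). The scalings move all peaks: the median of all peaks at P28 against P4 was 0.68 as reported, 0.16 centred, 0.09 after quantile normalization and -0.29 scaled to reads in peaks. The cause was not tested.

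Of the 58 genes, the P28 against P4 change was at or below 0 in 5 with centring, 7 with quantile normalization and 17 scaled to reads in peaks. Among the genes named by rule, these turned. At P28 against P4 with centring, Celf3 had -0.0069, Rbfox1 -0.25 and Rbfox3 -0.32. With quantile normalization Celf3 had -0.66, Ptbp2 -0.64, Rbfox1 -0.21 and Rbfox3 -0.96. Scaled to reads in peaks, Celf3 had -0.80, Celf5 -0.021, Prpf4 -0.46, Ptbp2 -0.42, Rbfox1 -0.75 and Rbfox3 -1.11. The others were Sf3b1 (-0.12, -0.68 and -0.90 in these 3 settings), Prpf38b (-0.069, -0.47 and -0.81), Prpf4b (-0.051 with quantile normalization and -0.56 scaled) and, scaled only, Prpf19, Sf3b4, Sf3a1, Srsf11, Hnrnpd, Hnrnpm, Srsf12 and Snrpg (-0.52 to -0.013). At P10 against P4 with centring, Prpf4 had -0.20, Prpf40b -0.12 and Snrpf -0.046. With quantile normalization Prpf4 had -0.29, Prpf40b -0.42, Ptbp2 -0.995 and Snrpd3 -0.12. Scaled, Celf2 had -0.33, Celf5 -0.31, Hnrnpc -0.091, Prpf4 -0.94, Prpf40b -0.88, Prpf6 -0.12, Ptbp2 -0.75, Sf3b6 -0.38, Snrpd3 -0.12 and Snrpf -0.66. Snrpf had -0.68 with the pseudocount of 0.1. With voom, Nova2 had 0.20, Prpf38a 0.37 and Prpf8 0.78. With 1 library left out, the changes of P10 against P4 ranged from -1.45 to 0.53 in Nova2, -0.41 to 0.51 in Prpf4, -0.076 to 0.34 in Prpf40b, -0.014 to 1.25 in Prpf6, -0.81 to 0.68 in Prpf8, -1.25 to 0.0045 in Rbfox1 and -0.95 to 1.35 in Snrpf.

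Same-numbered libraries did not deviate together (correlations of deviations from -0.0010 to 0.047), so the numbers were not treated as pairs. Depth limits the P4 and P10 values: 21 of the 58 genes had 3 reads or fewer in each library at each of these ages.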

Other observations

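Among the further splicing genes, singled out after their values were seen, the genes called at P10 against P4 were Luc7l2 and Lsm4, which associate with U1 and U6 snRNPs, the helicase gene Ddx39b and Zrsr1, a U2AF1 relative. Luc7l2 had means of 3.04 RPKM at P4, 10.9 at P10 and 11.2 at P28 (log2 change at P10 1.56, SE 0.299, limma adjusted p = 0.00414). Snrnp70, a U1 protein, had 1.59 and 1.05 RPKM at P4 and 0 and 1.38 at P10, which overlapped. Its P28 mean was 8.66 RPKM (P28 against P4 2.06, SE 0.451, limma adjusted p = 0.0057). The difference of P28 against P10 was not called (2.64, SE 0.451, limma adjusted p = 0.0119). Lsm5 was the 1 gene of the 48 whose P28 libraries were all below P4, with means of 1.54 and 0.571 RPKM on 3 reads or fewer in each P4 library, and it was not called (-0.64, SE 0.291, limma adjusted p = 0.101).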
